A study of Saccharomyces cerevisiae with 68 samples.

Results

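HO and 5 genes for cell cycle regulators, SWI5, ASH1, SWI4, SWI6 and MBP1, were followed through budding yeast lacking subunits of SAGA. The 6 genes were taken by symbol from the probe annotation and are 6 of the 5449 S. cerevisiae genes measured, each read by 1 probe set. HO encodes the endonuclease that starts mating-type switching. Its promoter is a textbook case of ordered recruitment: the zinc-finger activator Swi5 enters the nucleus as mitosis ends and brings in SWI/SNF and SAGA, and SBF, the complex of the DNA-binding protein Swi4 with Swi6, then turns the gene on in late G1. Ash1, which is made under Swi5 and collects in daughter cells, represses HO there with the Rpd3 deacetylase, so that mother cells express it. Mbp1 binds DNA in MBF, the sister complex that shares Swi6 and serves genes of DNA replication.

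SAGA is a coactivator whose Gcn5 subunit acetylates histones and whose Ubp8 subunit removes ubiquitin from histone H2B, while Spt3 and Spt8 contact the TATA-binding protein and Spt20 and Spt7 hold the complex together. Each of the 8 deletion strains and the wild type (WT) derives from FY406: spt20, spt7, ubp8, gcn5, spt3 and spt8 lack 1 subunit, ubp8_gcn5 and spt3_gcn5 lack a pair. All were grown in YPD at 30 °C and given 5 mM 4-thiouracil for 6 min, so that each culture gave newly synthesised RNA, purified through the label and called nascent here, and total RNA, with labelled S. pombe cells added before extraction. The labels give no mating type and no HO allele. In each fraction 6 arrays of WT were used, beside 4 for each of the ubp8, gcn5 and ubp8_gcn5 strains and 2 for each of the spt3, spt8 and spt3_gcn5 strains, with 4 of spt20 in nascent RNA, 2 of spt20 in total RNA and 4 of spt7 in total RNA. Per the labels each deletion strain was grown as 2 independent biological replicates, so where a strain has 4 arrays the p-values may rest partly on technical repeats.

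Values are log2 signals minus the median of all S. cerevisiae genes on the same array, and a change is a difference of such values between groups, with its standard error and a p-value from limma adjusted over all 5449 genes (Benjamini-Hochberg, threshold 0.05). A change is therefore relative to the median gene, whose own level against the S. pombe genes also differed from WT. On the log2 scale it did so by -2.66 in spt3_gcn5, -1.58 in ubp8_gcn5, -1.13 in spt3 and -1.065 in spt20 nascent RNA. In total RNA it ranged from -1.62 to 0.55 over the strains. The ubp8_gcn5 nascent value is of deposited signals, which appear divided by constants given below. It is therefore no measure of a shift in that strain's RNA. The deleted gene lay below every WT array in 19 of 19 cases. Arrays give no count depth, and their number limits the precision.

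Some arrays stood apart before any strain was compared. WT replicates 7 and 8 and both spt3_gcn5 arrays of each fraction had S. pombe profiles unlike those of the other arrays, with a mean rank correlation between the sets of 0.670 in nascent and 0.853 in total RNA against at least 0.892 and 0.973 within them. Treating these sets as a block compares spt3_gcn5 with WT replicates 7 and 8 and every other strain with WT replicates 3 to 6. That value is given below as the blocked one for many results of the 6 genes. For HO in ubp8 and spt20 the means of WT pairs stand in its place. In the ubp8_gcn5 nascent arrays the deposited signals appear divided by either of 2 constants with a log2 ratio of 0.43, 1 applying to HO, SWI4, SWI6 and MBP1 and the other to SWI5 and ASH1, so values with these constants undone stand beside many of the deposited ones. Blocked, paired and S. pombe-scaled values of these arrays use the deposited signals alone.

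In the strain without Gcn5, HO fell to 33.5% of WT in nascent and 30.0% in total RNA, and without both Gcn5 and Ubp8 to 26.8% and 23.8%. These were the 2 strains in which HO passed the test in both fractions. The gene, YDL227C, lies at 46271 to 48031 on chromosome IV of the R64 assembly. In nascent RNA, the 4 gcn5 arrays read -0.84, -0.50, -0.69 and -0.91 and the 4 ubp8_gcn5 arrays -0.91, -1.32, -1.07 and -0.92, all below the lowest of the WT arrays. In total RNA, the gcn5 arrays read -1.23, -1.07, -1.21 and -1.14 and the ubp8_gcn5 arrays -1.44, -1.65, -1.65 and -1.24, again all below WT.

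HO was also the member with the widest spread among WT arrays. In nascent RNA, WT replicates 3 and 4 gave 0.01 and -0.32, replicates 5 and 6 gave 0.86 and 0.99, and replicates 7 and 8 gave 1.75 and 1.78. In total RNA the same pairs gave -0.19 and -0.89, 0.89 and 1.10, and 1.27 and 1.27. In nascent RNA the 3 pairs lay apart, with at most 0.323 between the arrays of a pair. In total RNA replicates 3 and 4 differed by 0.697 from each other and lay under the other arrays, and the mean of replicates 7 and 8 lay 0.276 above that of replicates 5 and 6, a gap at least matched by 70.8% of genes. Between the first and second pairs, which shared an S. pombe profile, HO differed by 1.08 in nascent RNA, a gap at least matched by 0.642% of genes, and by 1.54 in total RNA, matched by 0.22%. The labels do not say whether these pairs come from separate cultures, and the part of this spread in the results was not tested beyond the alternatives below.

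Set against all 6 WT arrays, HO changed by -1.58 ± 0.28 (SE, limma adjusted p = 0.000277) in gcn5 nascent RNA and by -1.74 ± 0.29 (adjusted p = 4.06e-05) in gcn5 total RNA. In ubp8_gcn5 the changes were -1.90 ± 0.28 (limma adjusted p = 1.11e-05; -2.07 with the constants undone) and -2.07 ± 0.29 (limma adjusted p = 2.25e-06). All 4 remained past the threshold under each of the 24 alternatives run on them. Leaving out WT replicates 7 and 8, or blocking, brought the gcn5 changes to -1.12 and -1.39 and those of ubp8_gcn5 to -1.44 and -1.72. With the replicate number as a block, where replicates 3 and 4 are the WT arrays that share a number with the mutants, the changes were -0.62 and -0.60 in gcn5 and -0.94 and -0.94 in ubp8_gcn5, all past the threshold. Of all genes, 19.9% passed in gcn5 nascent, 36.5% in gcn5 total, 44.5% in ubp8_gcn5 nascent and 46.9% in ubp8_gcn5 total RNA, so the number of members called there, 1, 2, 2 and 3 of 6, is read against a broad background. With the constants undone, 30.8% of all genes passed in ubp8_gcn5 nascent RNA.

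The loss of Ubp8 alone left HO at 0.33, 0.65, 0.25 and 0.48 in nascent and 0.10, 0.47, 0.25 and 0.52 in total RNA, inside the WT range. The change of -0.42 ± 0.28 in nascent RNA (limma adjusted p = 0.28) has an interval of -0.996 to 0.16, and that of -0.24 ± 0.29 in total RNA (limma adjusted p = 0.55) one of -0.83 to 0.35. Without WT replicates 3 and 4, where HO was lowest, these changes were -0.92 and -0.80 and passed, and without replicate 4 alone they were -0.65 and -0.54 and passed too. The mean of WT replicates 3 and 4 was -0.16 in nascent and -0.54 in total RNA, and that of replicates 5 and 6 was 0.93 and 0.995. The ubp8 means of 0.43 and 0.33 lay between them. With the replicate number as a block the HO changes in ubp8 were 0.54 and 0.89, opposite in sign. Tested directly, gcn5 was lower than ubp8 by 1.16 ± 0.31 on the log2 scale in nascent RNA (log2 change -1.16, limma adjusted p = 0.0176) and differed by -1.50 ± 0.31 in total RNA (limma adjusted p = 0.00138), and HO was the single member called in either comparison, where 9.12% and 14.9% of genes passed. The nascent call was lost without ubp8 replicate 2, without gcn5 replicate 4 (-1.24 to -1.09 over all fits without 1 array) and with consecutive arrays averaged. Removing Ubp8 in addition to Gcn5 moved HO by a further -0.32 ± 0.31 in nascent RNA (limma adjusted p = 0.45, interval -0.96 to 0.31) and -0.33 ± 0.31 in total RNA (limma adjusted p = 0.53, interval -0.98 to 0.32). With the constants undone the nascent change was -0.49, which did not pass either. As deposited, the contrasts of ubp8_gcn5 with gcn5 called none of the members, against 20.2% of genes in nascent and 15.8% in total RNA. At an unadjusted p under 0.05 they called 1 member and 1959 genes in nascent and 1 member and 1526 genes in total RNA, all by limma. Against ubp8, ubp8_gcn5 had less HO by -1.48 ± 0.31 in nascent (limma adjusted p = 0.00107; -1.65 undone) and -1.83 ± 0.31 in total RNA (limma adjusted p = 0.000111), the single member called where 30.4% and 24.5% of genes passed.

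**Figure D1:**
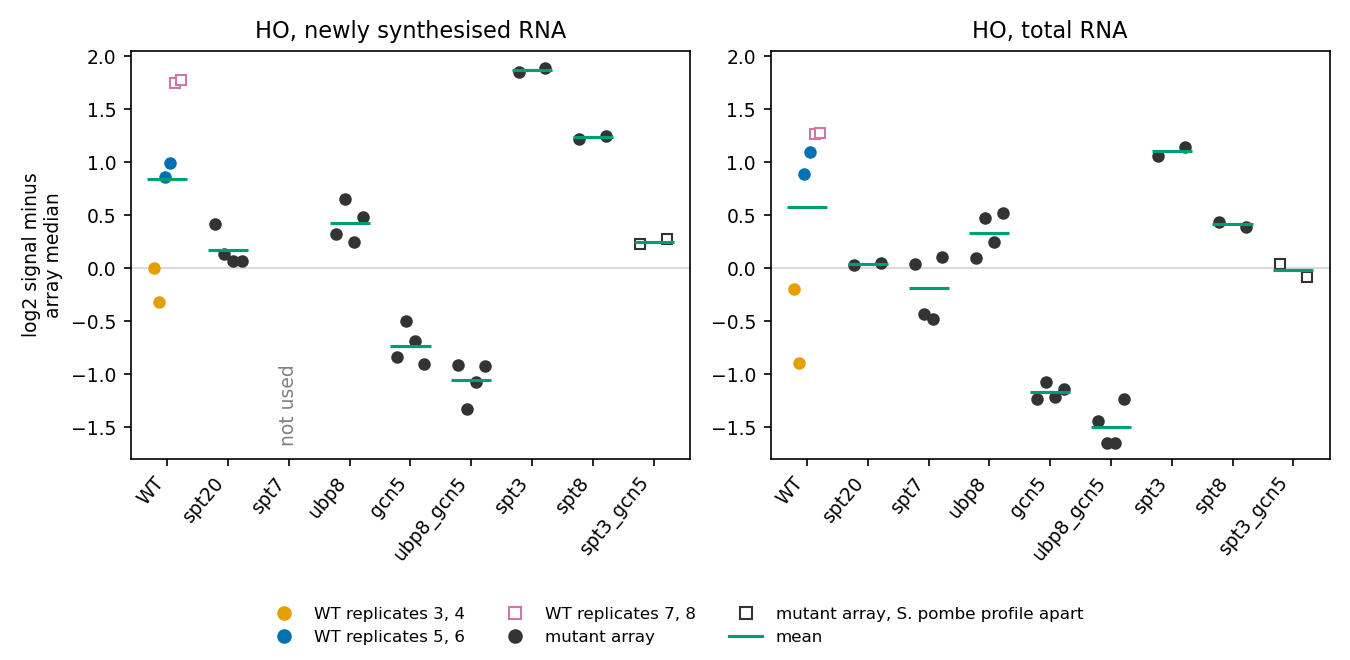
HO by array: the y axis is log2 signal minus the median of S. cerevisiae genes on that array, the x axis the strain, each point 1 array and each green line a group mean, with nascent RNA on the left and total RNA on the right. Every gcn5 and ubp8_gcn5 array lies under every WT array, while WT replicates 3 and 4 lie under the other WT arrays in both fractions and the 3 consecutive WT pairs (orange, blue, open pink) lie apart in nascent RNA.

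In the strains without Spt3 or Spt8, HO did not pass against all WT arrays in either fraction. The 2 spt3 arrays read 1.849 and 1.89 in nascent RNA, above every WT array, and 1.06 and 1.15 in total RNA, within the WT range. The spt8 arrays read 1.22 and 1.25 in nascent and 0.44 and 0.39 in total RNA, within WT. HO in spt3 was 2.03-fold higher than WT in nascent RNA, a change of 1.02 ± 0.35 that did not pass (limma adjusted p = 0.0578, interval 0.29 to 1.76), and 0.53 ± 0.36 in total RNA (limma adjusted p = 0.29). Relative to the S. pombe genes the nascent change of HO in spt3 was -0.10. With the block, HO rose in spt3 by 1.48 ± 0.24 in nascent RNA (limma adjusted p = 0.0001) and by 0.87 ± 0.32 in total RNA (limma adjusted p = 0.031), and in spt8 by 0.85 ± 0.24 in nascent RNA (limma adjusted p = 0.0087). Whether HO rises in these strains therefore depends on which WT arrays are taken as the reference. The spt8 changes against all WT arrays were 0.39 ± 0.35 in nascent and -0.16 ± 0.36 in total RNA.

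The 2 kinds of strain were also compared with each other, where no WT array enters the difference. HO was 6.07-fold higher in spt3 than in gcn5 in nascent RNA (log2 2.60 ± 0.38, limma adjusted p = 4.13e-05) and 4.81-fold higher in total RNA (log2 2.27 ± 0.38, limma adjusted p = 0.000116). All 4 gcn5 arrays lay under both spt3 arrays in each fraction. In nascent RNA 2 members were higher in spt3 than in gcn5, HO and SWI6, where 15.8% of genes passed (SWI6 by 0.46, a call lost in 4 of 6 fits without 1 array, at 0.39 to 0.54), and in total RNA HO was higher and ASH1 lower, where 22% passed. Spt3 and Spt8 themselves were not told apart at HO, with 0.64 ± 0.43 in nascent RNA (limma adjusted p = 0.90, interval -0.26 to 1.53) and 0.69 ± 0.44 in total RNA (limma adjusted p = 0.46, interval -0.23 to 1.60).

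When Gcn5 was removed together with Spt3, HO lay well under the spt3 level. The spt3_gcn5 arrays read 0.22 and 0.28 in nascent and 0.04 and -0.08 in total RNA, inside the WT range in both. Against spt3, HO differed by -1.62 ± 0.43 in nascent RNA (limma adjusted p = 0.0061) and -1.12 ± 0.44 in total RNA (limma adjusted p = 0.036), and by -2.99 and -2.17 with the block. The total RNA call was lost without any 1 of the 4 arrays, at -1.19 to -1.06. Against gcn5, HO was higher by 0.98 ± 0.38 (limma adjusted p = 0.0355) and 1.14 ± 0.38 (limma adjusted p = 0.0133), but by -0.39 and 0.10 with the block, neither past the threshold. Without 1 array at a time these calls were lost in 5 of 6 fits in nascent RNA and without either spt3_gcn5 array in total RNA. Against all WT arrays the double mutant gave -0.59 ± 0.35 (limma adjusted p = 0.18) and -0.60 ± 0.36 (limma adjusted p = 0.16), and against WT replicates 7 and 8 HO fell by 1.51 ± 0.28 in nascent RNA (blocked change -1.51, limma adjusted p = 0.00018) and changed by -1.29 ± 0.37 in total RNA (limma adjusted p = 0.0052). The direction of the double mutant against gcn5 thus cannot be told apart from the set of arrays that stood apart.

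Among members, spt3_gcn5 against spt3 called 1 higher and 2 lower in nascent RNA, where 34.9% of genes passed, and 2 higher and 2 lower in total RNA, where 54.2% passed. Against gcn5 it called 2 higher and 1 lower in nascent RNA (47.2% of genes) and 3 higher and 1 lower in total RNA (60% of genes).

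In the strains without a scaffold subunit, HO passed against WT in spt7 total RNA alone. The spt20 arrays read 0.41, 0.13, 0.07 and 0.07 in nascent and 0.03 and 0.05 in total RNA, and the spt7 arrays 0.04, -0.43, -0.48 and 0.11 in total RNA, all within the range of WT. HO changed by -0.67 ± 0.28 in spt20 nascent RNA (limma adjusted p = 0.0531) and -0.54 ± 0.36 in its total RNA (limma adjusted p = 0.24), neither past the threshold, and both passed without WT replicates 3 and 4, at -1.17 and -1.09. The spt20 means of 0.17 in nascent and 0.04 in total RNA lay between the means of 2 WT pairs. These were -0.16 and -0.54 in replicates 3 and 4, and 0.93 and 0.995 in replicates 5 and 6. Over all alternatives run, the spt20 changes ranged from -1.74 to 0.29 and from -1.09 to 0.58. In spt7 total RNA HO passed at -0.77 ± 0.29 (limma adjusted p = 0.0298), but not with the block (-0.42) and not in 6 of 10 fits that left out 1 array (-1.06 to -0.63 over all 10). Tested directly, spt20 had more HO than gcn5 by 0.90 ± 0.31 in nascent RNA (limma adjusted p = 0.0311) and 1.20 ± 0.38 in total RNA (limma adjusted p = 0.0204). The nascent call was lost in 6 of 8 fits without 1 array (0.82 to 0.98), and the total call without either spt20 array (1.18 to 1.24 over all 6 fits). The 2 spt20 total arrays left out because their label is in doubt read 0.53 and 0.84, and with them kept in the change from WT was -0.21.

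ASH1, whose product represses HO in daughter cells, followed another set of strains. It fell in spt20 to 39.4% of WT in nascent and 42.3% in total RNA, in spt7 to 41.3% in total RNA and in spt3 to 43.4% in total RNA, and it did not pass the test in gcn5 or ubp8_gcn5 in either fraction. ASH1 is YKL185W, at 94499 to 96265 on chromosome XI (R64). WT ranged from 0.54 through a median of 0.83 to 1.80 in nascent RNA and from 0.81 through 1.01 to 1.354 in total RNA, a much narrower spread than that of HO in total RNA.

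The spt20 arrays read -0.44, 0.02, -0.26 and -0.38 for ASH1 in nascent and -0.22 and -0.14 in total RNA, and the spt7 arrays -0.25, -0.27, -0.09 and -0.25 in total RNA. None of them overlapped WT. The changes were -1.35 ± 0.21 in spt20 nascent RNA (limma adjusted p = 2.09e-05), -1.24 ± 0.12 in its total RNA (limma adjusted p = 1.1e-08) and -1.28 ± 0.09 in spt7 total RNA (limma adjusted p = 7.95e-11). With the block they were -0.98, -1.14 and -1.17, all past the threshold, and they passed under every alternative run (24, 22 and 24). With the 2 doubtful spt20 total arrays kept in, which read 0.49 and 0.51, ASH1 still passed at -0.90. The strains spt20 and spt7 differed by 0.03 ± 0.13 in ASH1 (limma adjusted p = 0.92, interval -0.23 to 0.30) and by 0.23 ± 0.38 in HO (limma adjusted p = 0.79, interval -0.56 to 1.02). That contrast called none of the members, against 8.28% of genes, and none of them at an unadjusted p under 0.05 either, where limma called 1162 genes.

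Without Spt3, ASH1 was low in total RNA alone. The arrays read -0.05 and -0.24 there, under all WT arrays, and 0.59 and 0.85 in nascent RNA, inside WT. The total RNA change was -1.20 ± 0.12 (limma adjusted p = 1.14e-07, blocked -1.10), and it passed under all 22 alternatives. The nascent change was -0.36 ± 0.26 (limma adjusted p = 0.43, blocked 0.01). The difference of the nascent and total changes was 0.85 ± 0.29, with an interval of 0.26 to 1.44, and did not pass over all genes (limma adjusted p = 0.144), but did with same-numbered arrays of the strain as pairs (limma adjusted p = 0.0225).

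Spt8, which acts beside Spt3, gave a smaller change of the same gene. Its arrays read 0.61 and 0.63 in total RNA, just under WT, and 1.20 and 1.19 in nascent RNA. ASH1 fell in spt8 total RNA by 0.44 ± 0.12 (log2 change -0.44, limma adjusted p = 0.0144), a call lost without either spt8 array, with 0.11 relative to the S. pombe genes. It gave 0.12 ± 0.26 in nascent RNA, or 0.49 with the block (limma adjusted p = 0.02). The spt3 strain had less ASH1 than spt8 by -0.77 ± 0.15 in total RNA (limma adjusted p = 0.00125), the single member called where 7.41% of genes passed. In nascent RNA ASH1 differed by -0.48 ± 0.32 between them (limma adjusted p = 0.90), and no member was called, against 0.973% of genes (0 members and 404 genes at an unadjusted p under 0.05 by limma).

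ASH1 in the strains without Gcn5 lay with WT. The gcn5 arrays read 0.89, 1.58, 1.11 and 1.07 in nascent and 0.67, 1.19, 0.92 and 1.00 in total RNA, and the changes were 0.08 ± 0.21 (limma adjusted p = 0.81) and -0.12 ± 0.09 (limma adjusted p = 0.35), the nascent one 0.45 ± 0.13 and past the threshold with the block (limma adjusted p = 0.011). The ubp8_gcn5 arrays read 1.06, 0.89, 0.67 and 0.72 in nascent and 0.98, 0.77, 0.96 and 0.97 in total RNA, with changes of -0.24 ± 0.21 (0.02 undone) and -0.14 ± 0.09. The ubp8 arrays read 0.78, 0.95, 0.76 and 0.73 in total RNA, overlapping WT, and the change of -0.26 ± 0.09 passed narrowly (limma adjusted p = 0.0486). It lost the call with the block and in 6 of 10 fits without 1 array, and was 0.08 relative to the S. pombe genes.

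A direct test separated the strains. ASH1 was lower in spt20 than in gcn5 by -1.43 ± 0.23 in nascent RNA (limma adjusted p = 5.38e-05) and -1.13 ± 0.13 in total RNA (limma adjusted p = 2.68e-07), while HO in the same contrasts was higher. The spt20 and gcn5 contrasts called 1 member higher and 2 lower in nascent RNA, where 27.4% of genes passed, and 1 higher and 1 lower in total RNA, where 28.6% passed. ASH1 was lower in spt3 than in gcn5 by -1.09 ± 0.13 in total RNA (limma adjusted p = 6.9e-07) and gave -0.44 ± 0.28 in nascent RNA (limma adjusted p = 0.31). HO and ASH1 thus differed between spt3 and gcn5 total RNA in opposite directions.

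In spt3_gcn5, ASH1 read 1.89 and 1.67 in nascent and 1.41 and 1.348 in total RNA, next to WT replicates 7 and 8 at 1.80 and 1.80 and at 1.19 and 1.354. Against all WT arrays ASH1 rose by 0.70 ± 0.26 in nascent RNA (limma adjusted p = 0.0377) and 0.32 ± 0.12 in total RNA (limma adjusted p = 0.0279), and against WT replicates 7 and 8 alone by the block it gave -0.03 and 0.10, neither past the threshold. Without 1 array at a time the nascent call was lost in 6 of 8 fits and the total call in 3 of 8. Relative to the S. pombe genes the 2 changes were -1.96 and -1.30. It was higher than in spt3 by 1.52 ± 0.15 in total RNA (limma adjusted p = 1.57e-08), and by 1.20 ± 0.16 with the block (limma adjusted p = 2e-06). In nascent RNA that difference was 1.06 ± 0.32 (limma adjusted p = 0.0147), or -0.03 with the block, and the call was lost in 2 of 4 fits without 1 array.

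**Figure D2:**
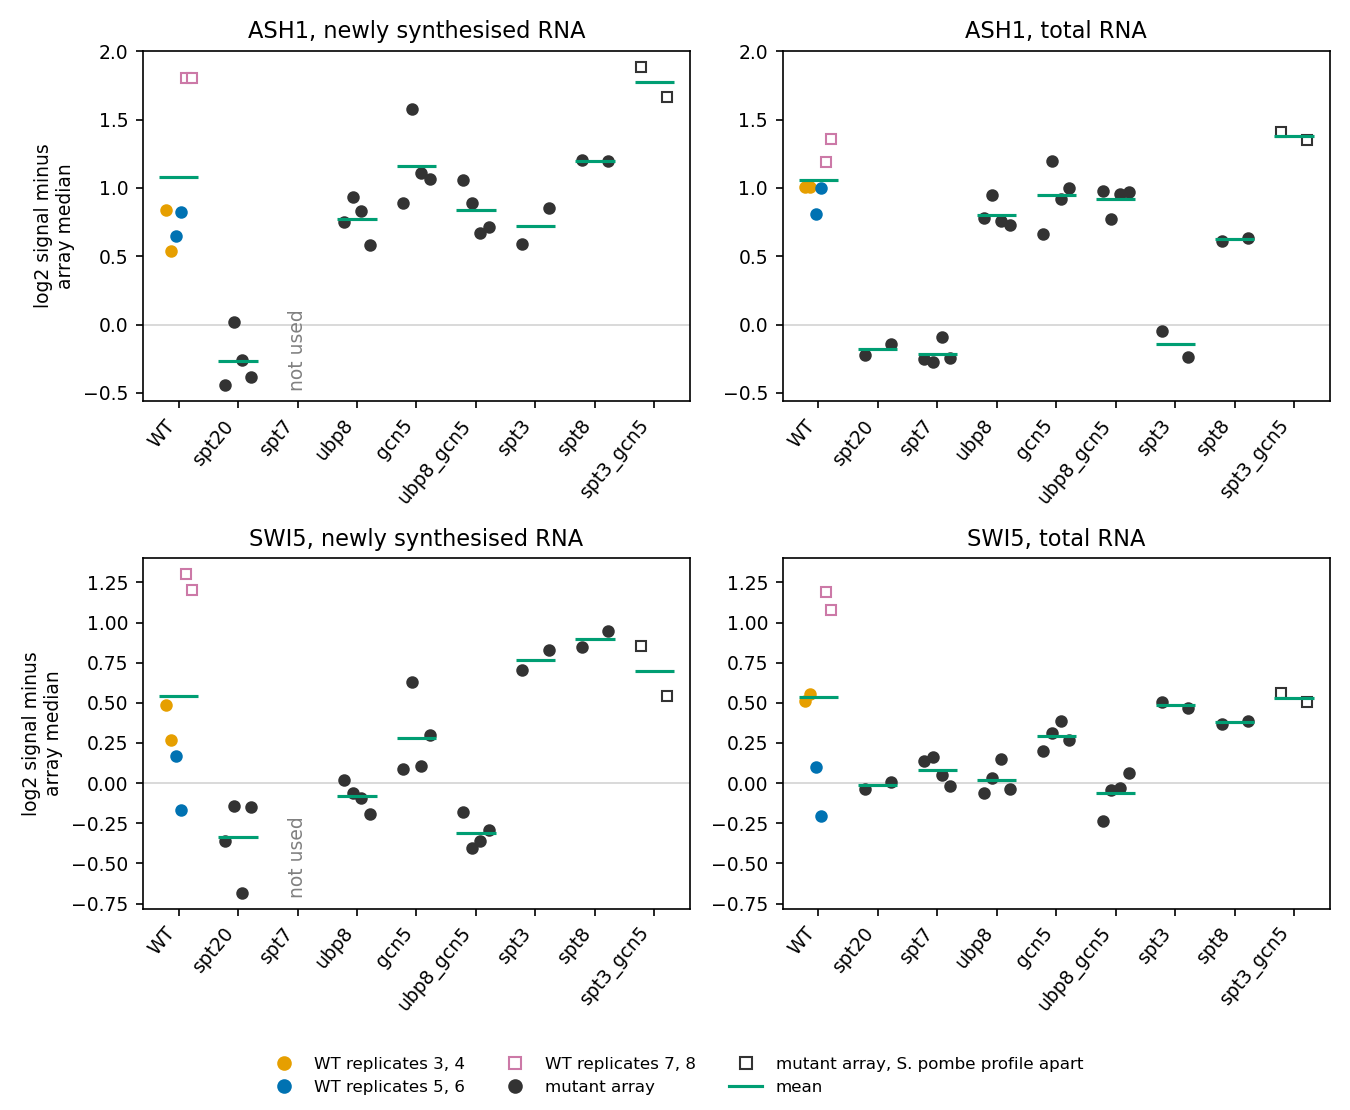
ASH1 (top) and SWI5 (bottom) by array, nascent RNA on the left and total RNA on the right, with log2 signal minus the array median on the y axis, the strain on the x axis, 1 point per array and a green line at each group mean. In total RNA the spt20, spt7 and spt3 arrays of ASH1 lie between -0.27 and -0.05, below the WT range of 0.81 to 1.354, while the SWI5 arrays of those strains fall inside the WT range.

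SWI5 encodes the activator that starts HO transcription and also drives ASH1, and its own gene belongs to the cluster that Mcm1, Fkh2 and Ndd1 switch on in G2 and M. It is YDR146C, at 748613 to 750742 on chromosome IV (R64). WT ranged from -0.17 through 0.38 to 1.30 in nascent and from -0.20 through 0.53 to 1.19 in total RNA, with the highest values in replicates 7 and 8 of each fraction. SWI5 fell in spt20 to 54.5% of WT in nascent RNA and in ubp8_gcn5 to 55.4%, and by less in the total RNA of spt20, spt7, ubp8 and ubp8_gcn5.

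The spt20 arrays read -0.36, -0.14, -0.68 and -0.15 for SWI5 in nascent and -0.04 and 0.01 in total RNA, overlapping WT. The changes were -0.88 ± 0.21 (limma adjusted p = 0.00162) and -0.55 ± 0.22 (limma adjusted p = 0.0404), and with the block -0.52, which passed, and -0.25, which did not. The total RNA call was lost in 4 of 8 fits without 1 array. The ubp8_gcn5 arrays read -0.18, -0.40, -0.36 and -0.29 in nascent RNA, under WT as deposited, and 0.08, -0.14, -0.09 and -0.02 with the constants undone, within WT. The change was -0.85 ± 0.21 as deposited (limma adjusted p = 0.00205) and -0.59 ± 0.21 undone (limma adjusted p = 0.0347), and in total RNA it was -0.60 ± 0.17 (limma adjusted p = 0.00537). The blocked values of -0.50 in nascent RNA, as deposited, and -0.30 in total RNA passed as well. The block was not run with the constants undone, so whether the nascent call holds with both was not tested.

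The remaining SWI5 calls did not hold with the block. They were -0.62 ± 0.21 in ubp8 nascent RNA (limma adjusted p = 0.0469, blocked -0.27), -0.52 ± 0.17 in ubp8 total RNA (limma adjusted p = 0.0278, blocked -0.22) and -0.45 ± 0.17 in spt7 total RNA (limma adjusted p = 0.0302, blocked -0.16), and without 1 array they were lost in 7, 5 and 4 of 10 fits. In gcn5, where HO was low, SWI5 read 0.09, 0.63, 0.11 and 0.30 in nascent and 0.20, 0.31, 0.39 and 0.27 in total RNA, and its changes of -0.26 ± 0.21 (interval -0.69 to 0.17) and -0.25 ± 0.17 (interval -0.60 to 0.11) did not pass. Tested directly, SWI5 was lower in spt20 than in gcn5 by -0.61 in nascent RNA (limma adjusted p = 0.048), a call lost in 7 of 8 fits without 1 array (-0.68 to -0.50). The spt3 arrays read 0.71 and 0.83 and the spt8 arrays 0.85 and 0.94 in nascent RNA, within WT, with changes that passed with the block alone, at 0.58 (limma adjusted p = 0.011) and 0.71 (limma adjusted p = 0.0028). In spt3_gcn5, SWI5 at 0.86 and 0.54 in nascent and 0.56 and 0.50 in total RNA lay below WT replicates 7 and 8, and the blocked changes of -0.55 and -0.60 passed where 0.16 and -0.01 against all WT arrays did not.

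SWI6 encodes the regulatory subunit that SBF and MBF share. It is YLR182W, at 517940 to 520351 on chromosome XII (R64), and its probe set lies in the lowest 25% by mean signal in both fractions. SWI6 fell in spt20, in spt7 and, with called changes of -0.49 to -0.32, in strains without Ubp8 or Gcn5. It rose in spt3_gcn5 relative to the median gene, though not relative to the S. pombe genes. WT ranged from -0.99 through -0.78 to -0.57 in nascent and from -1.15 through -1.06 to -0.72 in total RNA, the tightest WT group of the 6 genes in nascent RNA.

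The largest decrease was in spt7 total RNA, at -1.57, -1.65, -1.62 and -1.83, where SWI6 changed by -0.67 ± 0.10 (limma adjusted p = 8.46e-06, blocked -0.56). The spt20 arrays read -1.04, -1.39, -1.14 and -1.39 in nascent and -1.58 and -1.35 in total RNA, and SWI6 changed by -0.47 ± 0.11 (limma adjusted p = 0.00155) and -0.47 ± 0.13 (limma adjusted p = 0.00506). All of these arrays lay below WT. The blocked spt20 changes of -0.49 and -0.36 passed too, and without spt20 replicate 2 the total RNA call was lost.

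In ubp8, SWI6 changed by -0.36 ± 0.11 in nascent RNA (limma adjusted p = 0.0338, blocked -0.38) and -0.32 ± 0.10 in total RNA (limma adjusted p = 0.0253, blocked -0.21 and not past the threshold, 0.01 relative to the S. pombe genes). Each of these 2 calls was lost in 4 of 10 fits without 1 array (-0.43 to -0.30 and -0.40 to -0.25). In gcn5 the nascent change of -0.29 ± 0.11 missed the threshold (limma adjusted p = 0.0713) and passed with the block at -0.31, and the total change of -0.34 ± 0.10 passed (limma adjusted p = 0.0132) and missed it with the block at -0.22. In ubp8_gcn5 the total change was -0.49 ± 0.10 (limma adjusted p = 0.000448, blocked -0.37), and the nascent one -0.25 ± 0.11 as deposited (limma adjusted p = 0.0751) or -0.41 ± 0.11 undone (limma adjusted p = 0.00654). The 6 changes of these 3 strains lay between -0.49 and -0.25 as deposited, and 4 of them passed. In spt3_gcn5 the arrays read -0.12 and -0.23 in nascent and -0.50 and -0.44 in total RNA, above every WT array, and relative to the median gene SWI6 rose by 0.60 ± 0.14 (limma adjusted p = 0.00177, blocked 0.64) and 0.53 ± 0.13 (limma adjusted p = 0.00157, blocked 0.30 and not past the threshold), against -2.06 and -1.09 relative to the S. pombe genes. Against gcn5 the double mutant had more SWI6 by 0.88 in nascent and 0.86 in total RNA, both past the threshold.

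SWI4 encodes the DNA-binding subunit of SBF and MBP1 that of MBF, and both gave weak probe signals and few calls. SWI4 (YER111C) lies at 382595 to 385876 on chromosome V and MBP1 (YDL056W) at 352877 to 355378 on chromosome IV (R64), and both probe sets are in the lowest 25% by mean signal in each fraction. For SWI4 the 6 nascent WT arrays split, with replicates 3 to 6 at -1.96, -2.63, -2.37 and -1.87 and replicates 7 and 8 at -3.58 and -3.49. The spt3_gcn5 arrays, which share the S. pombe profile of replicates 7 and 8, read -3.79 and -3.83. All other mutant nascent arrays lay between -2.38 and -1.74.

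SWI4 accordingly passed in 2 of the 7 nascent contrasts, at 0.62 ± 0.24 in spt20 (limma adjusted p = 0.0434) and -1.16 ± 0.31 in spt3_gcn5 (limma adjusted p = 0.00459), and neither passed with the block (0.17 and -0.28). The spt20 call was lost in 6 of 10 fits without 1 array and the other without spt3_gcn5 replicate 2. The spt20 change was -0.45 relative to the S. pombe genes. In total RNA, WT ranged from -2.34 through -2.06 to -1.68 and the strains from -2.48 to -1.75, and no change passed against all WT arrays. With the block, SWI4 fell in ubp8 total RNA by 0.39 (blocked change -0.39, limma adjusted p = 0.019) and changed by -0.40 in ubp8_gcn5 total RNA (limma adjusted p = 0.0077). MBP1 read -2.03 through -0.95 to -0.51 in WT nascent and -1.19 through -1.08 to -0.80 in WT total RNA, with replicates 7 and 8 lowest in both. It changed by -0.47 ± 0.13 in spt3_gcn5 total RNA (arrays -1.70 and -1.35, limma adjusted p = 0.00415), or -0.34 with the block, which missed the threshold (limma adjusted p = 0.062), as it did without replicate 1 of that strain. Its other changes lay between -0.41 and 0.46 and did not pass.

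**Figure D3:**
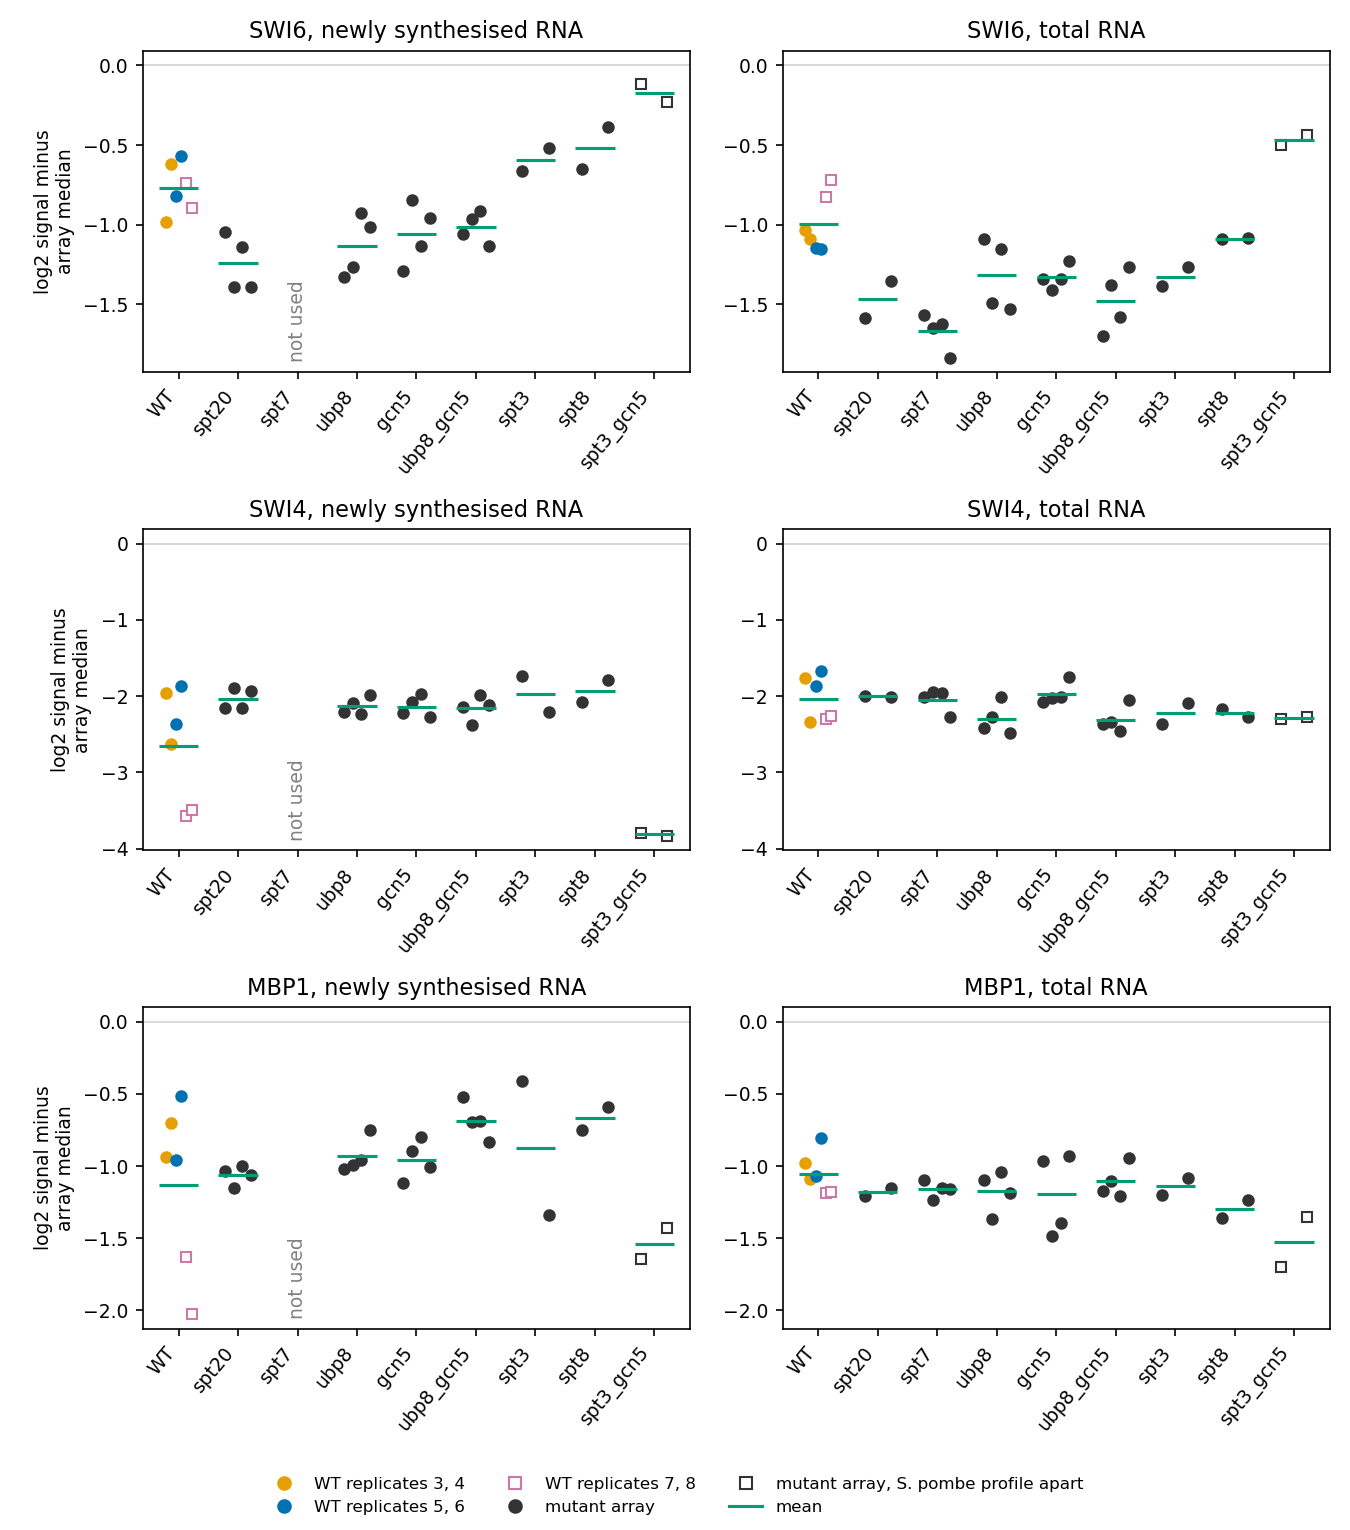
SWI6, SWI4 and MBP1 by array, nascent RNA on the left and total RNA on the right, with log2 signal minus the array median on the y axis, the strain on the x axis, 1 point per array and a green line at each group mean. The SWI6 arrays of spt7 lie below WT and those of spt3_gcn5 above it, and in nascent RNA the open squares, the arrays that stand apart by their S. pombe profile, hold the lowest SWI4 values, from -3.83 to -3.49.

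Counted over the 6 genes against WT, nascent RNA gave 1 higher and 3 lower in spt20, where 45.5% of genes passed, 2 lower in ubp8 (14.2% of genes), and 2 higher and 1 lower in spt3_gcn5 (41.8%). No member passed in spt3 or spt8 nascent RNA, where limma called 13% and 12.7% of genes, although 2 members and 1 member had an unadjusted p under 0.05, as did 1416 and 1518 genes. In total RNA, 3 members were lower in spt20 (44.1% of genes), 4 in spt7 (48.5%), 3 in ubp8 (25.1%), 1 in spt3 (26.7%) and 1 in spt8 (15%), and 2 were higher and 1 lower in spt3_gcn5 (56.9%). Of 42 nascent changes 12 passed, and of 48 total changes 20. With the block 17 and 15 passed, of which 8 and 10 were called in the same direction in both fits. All of these comparisons use the same WT arrays, so their calls are not independent of each other.

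**Figure D4:**
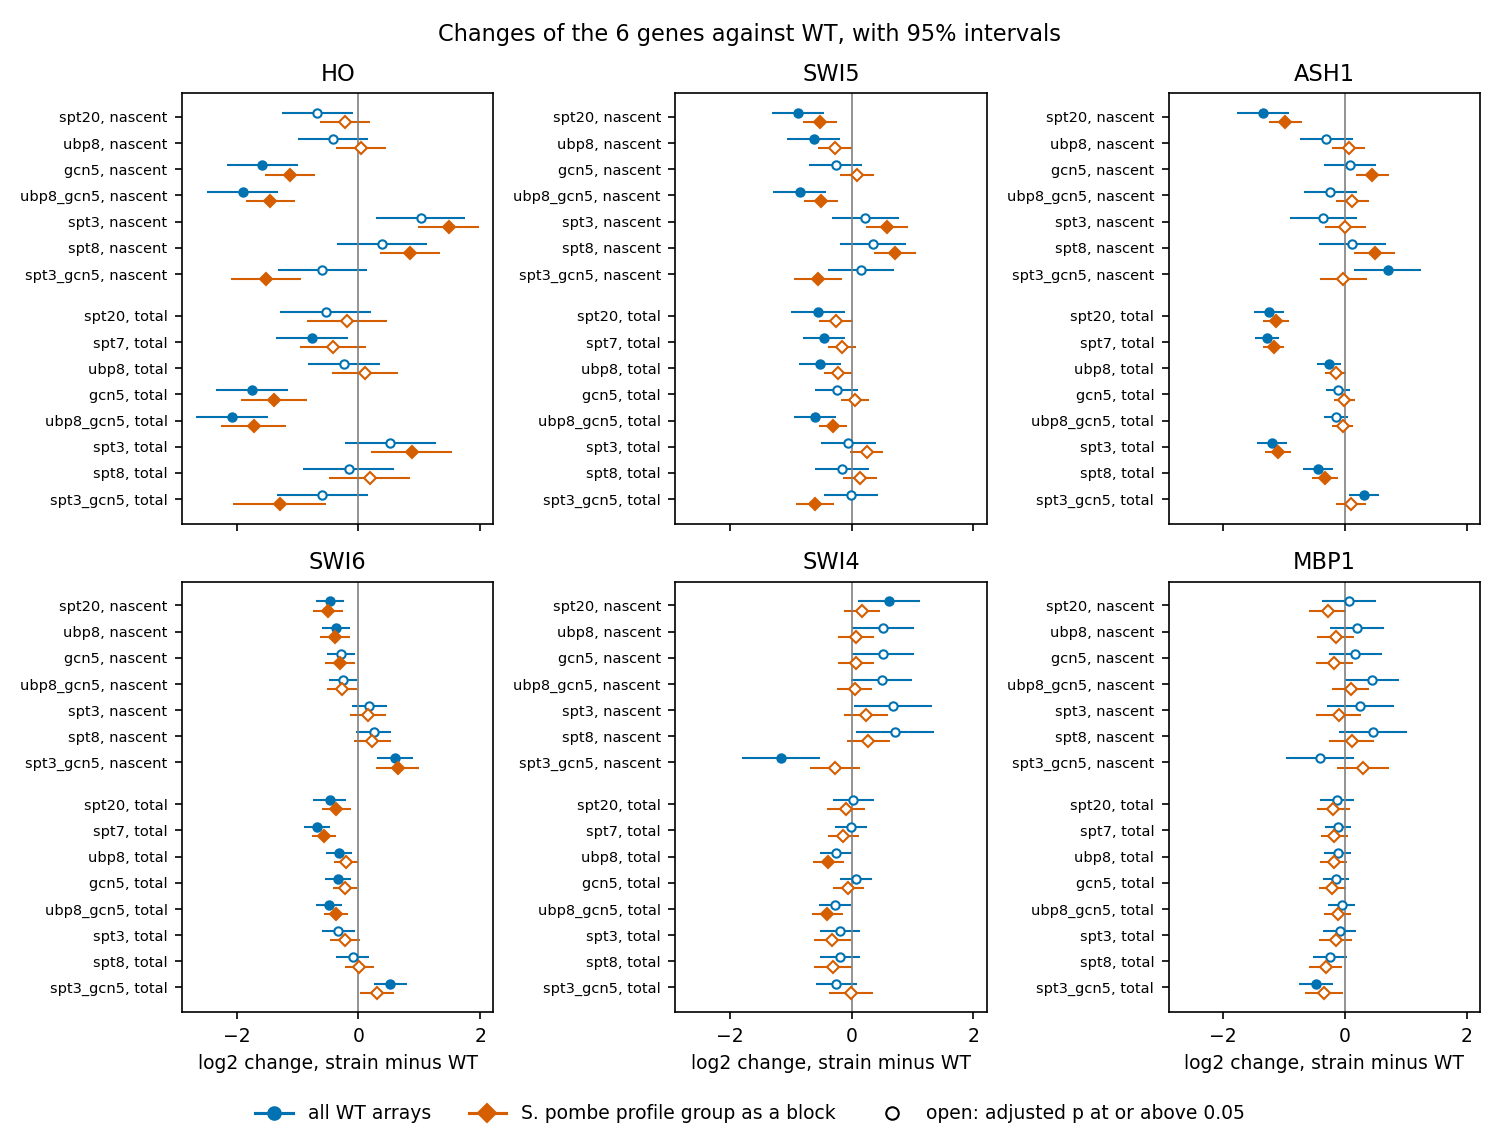
Changes of the 6 genes against WT: the x axis is the log2 change, the y axis the strain and fraction, blue circles use all WT arrays and orange diamonds the S. pombe profile group as a block, bars are 95% intervals and open symbols did not pass an adjusted p of 0.05. HO is lowest in gcn5 and ubp8_gcn5, from -2.07 to -1.58 in blue, and ASH1 in spt20, spt7 and spt3 total RNA, from -1.28 to -1.20 in blue.

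Whether newly made and total RNA of the members parted depended on how the arrays were paired. With the arrays taken as unpaired, the difference between the nascent and the total change passed for none of the 6 genes in any of 7 strains, against 0% of genes in spt20, ubp8, gcn5 and ubp8_gcn5, 0.973% in spt3, 6.99% in spt8 and 0.275% in spt3_gcn5. At an unadjusted p under 0.05 limma called 0 members in spt20 and gcn5, 1 in ubp8 and spt3_gcn5, 2 in ubp8_gcn5 and spt8 and 3 in spt3. The genes at that level numbered 465, 71, 139, 672, 781, 1349 and 782 in the same order of strains. For HO the differences were 0.16 in gcn5 (interval -0.67 to 0.99), 0.17 in ubp8_gcn5 (-0.66 to 1.00) and 0.50 in spt3 (-0.55 to 1.55), each of which holds 0. The ubp8_gcn5 values here and the counts above are as deposited. With the constants undone the HO difference in ubp8_gcn5 was 0.0006. With same-numbered arrays of a strain as pairs, HO passed in spt3 (0.50, limma adjusted p = 0.0479) and spt8 (0.55, limma adjusted p = 0.0162), ASH1 in spt3 (0.85), SWI5 in spt8 (0.51) and SWI4 in spt8 (0.91) and ubp8_gcn5 (0.77). The SWI4 call in ubp8_gcn5 is of deposited signals, and the paired fit was not run with the constants undone. This pairing was chosen after seeing the data. The shares of genes above belong to the unpaired fit, so they are no background for these paired calls. The labels do not say that a number marks 1 culture in both fractions. Same-numbered arrays deviated together in WT (correlations of 0.56 to 0.852 over genes) and ubp8 (0.353 to 0.571). They did not do so in every strain (-0.315 to 0.523 in gcn5). In both fractions WT holds arrays that stood apart by S. pombe profile, so WT arrays of the same profile can correlate whatever their number. Differently numbered arrays were not compared, so these correlations cannot show whether a number marks 1 culture. HO within WT was higher in nascent than in total RNA by 0.27 in the paired fit. Within WT, SWI4 had less nascent than total signal relative to the median gene, at -0.62 ± 0.18 (limma adjusted p = 0.0156). It was the single member called where 13% of genes passed, and it missed the threshold under quantile normalisation (-0.66) and with WT replicates 3 to 6 alone (-0.30).

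Genes that the same regulators control were counted from lists chosen with earlier results of these data known. Of 13 SBF targets, genes of G1 cyclins and the cell wall, 8 were lower and 1 higher in spt20 nascent RNA, 7 lower in its total RNA, and 10 lower and 1 higher in spt7 total RNA, where 45.5%, 44.1% and 48.5% of all genes passed in either direction. The counts in gcn5 were 3 lower in nascent and 5 lower and 2 higher in total RNA, and in ubp8_gcn5 4 lower and 2 higher in nascent and 3 lower and 4 higher in total RNA, against 19.9%, 36.5%, 44.5% and 46.9% of all genes. With the constants undone the ubp8_gcn5 nascent counts were 3 lower and 2 higher, against 30.8% of all genes. CLN1, a G1 cyclin, changed by -1.50 in spt20 nascent, -1.59 ± 0.14 in spt7 total and -0.90 in gcn5 total RNA, and SVS1, a cell wall protein gene, by -2.22 ± 0.11 in spt7 total RNA. PCL1, a cyclin of the Pho85 kinase, rose by 1.06 ± 0.22 in ubp8_gcn5 total RNA. In spt3, 2 were lower in nascent and 4 in total RNA, with none higher, against 13% and 26.7% of all genes.

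Of 16 MBF targets, 7 were lower and 1 higher in spt20 nascent RNA and 8 lower in spt7 total RNA, 8 of 16 called in each beside 45.5% and 48.5% of all genes, with NRM1, which represses MBF genes as cells leave G1, at -1.38 ± 0.10 in spt7. In gcn5, 4 were lower in nascent and 5 in total RNA (all genes: 19.9% and 36.5%), and POL1, the catalytic subunit of DNA polymerase alpha, changed by -0.79 ± 0.14 in total RNA. In spt3, 2 were higher in each fraction, none lower (13% and 26.7% of all genes), and 7 in each with the block, where 34.3% and 43.2% of all genes passed. In spt3_gcn5, 3 were higher and 3 lower in nascent and 5 higher and 3 lower in total RNA (41.8% and 56.9% of all genes), with RAD27, a flap nuclease of replication, at 1.42 ± 0.13.

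**Figure D5:**
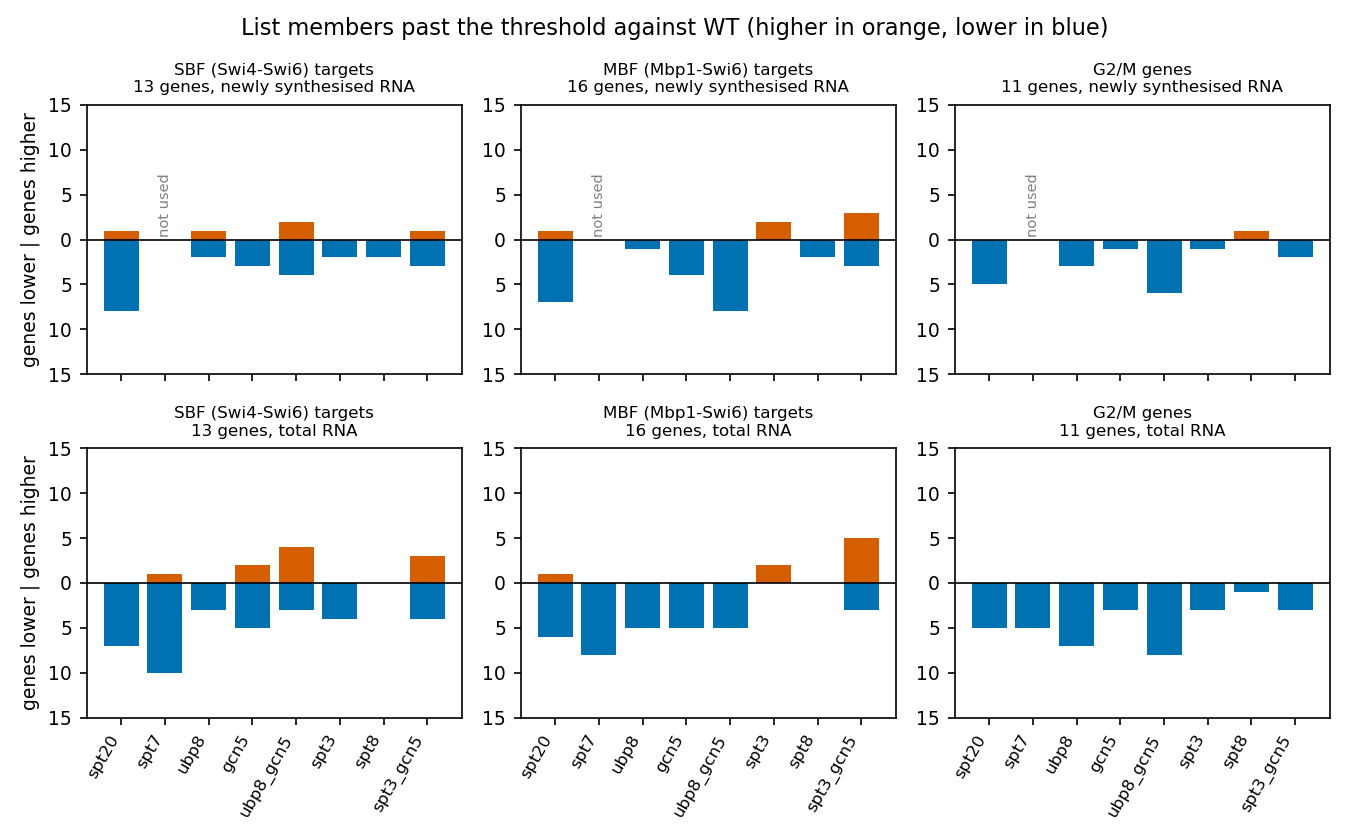
Members of 3 gene lists called against WT, by strain on the x axis: bars above 0 count genes that were higher (orange) and bars below 0 genes that were lower (blue), with nascent RNA in the top row and total RNA in the bottom row. Of the 13 SBF targets, 10 were lower and 1 higher in spt7 total RNA, against 5 lower and 2 higher in gcn5 total RNA.

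Of 11 genes of the G2 and M cluster to which SWI5 belongs, 5 were lower in spt20 in each fraction and in spt7 total RNA, 6 in ubp8_gcn5 nascent and 8 in its total RNA, and 7 in ubp8 total RNA, with none higher in these. All genes passed there at 45.5%, 44.1%, 48.5%, 44.5%, 46.9% and 25.1%. With the constants undone, 5 were lower in ubp8_gcn5 nascent RNA, where 30.8% of all genes passed. The mitotic cyclin CLB1 changed by -2.15 in spt20 nascent, -2.13 in spt7 total and -2.31 in spt3 total RNA. In spt3 total RNA 3 of the 11 were lower and none higher, beside 26.7% of all genes. Of 11 upstream regulators of the 6 genes, 6 were lower in spt20 nascent RNA and 5 in spt7 total RNA, near the 45.5% and 48.5% of all genes that passed. MCM1, which acts with Fkh2 and Ndd1 on SWI5, changed by -0.81 in spt20 nascent and -0.94 in spt7 total RNA, and FKH2 by -0.48 and -0.52 in gcn5. CLN3, the G1 cyclin that sets SBF free of Whi5, rose by 0.64 in gcn5 nascent and 0.42 in its total RNA. Of the 11 regulators 2 were lower and 2 higher in each fraction of gcn5, beside 19.9% and 36.5% of all genes. NDD1 changed by -0.71 in spt3 and -0.76 in spt8 total RNA, and WHI5, which holds SBF inactive, by -1.28 ± 0.29 in spt3 total RNA. Of the 11 regulators 2 were lower and 1 higher in spt3 total RNA and 1 was lower in spt8 total RNA. All genes passed there at 26.7% and 15%.

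Of 17 genes for chromatin factors known to act at HO, among them subunits of SWI/SNF, FACT and the Rpd3 complex, none passed in gcn5 in either fraction by limma against all WT arrays, where 19.9% and 36.5% of all genes did, with 1 in nascent and 2 in total RNA at an unadjusted p under 0.05. With the block, 3 were higher and 2 lower in gcn5 nascent and 4 higher and 1 lower in its total RNA, beside 33.4% and 52.4% of all genes. RPD3, the deacetylase through which Ash1 represses HO, changed by -0.67 in spt20 nascent and -0.49 in spt7 total RNA. In each of these 4 of the 17 were lower and 1 higher, beside 45.5% and 48.5% of all genes. Of 5 genes for the transport of ASH1 mRNA into daughter cells, 3 were lower in spt20 in each fraction and in spt7 total RNA, beside 45.5%, 44.1% and 48.5% of all genes. PUF6, a translational repressor of ASH1 mRNA, was lower in gcn5 in both fractions, at -0.82 and -0.71, and SHE2, which binds the mRNA, changed by -0.68 in spt7 total RNA. In gcn5, 1 of the 5 was lower in nascent and 3 in total RNA, beside 19.9% and 36.5% of all genes.

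HO is also shut off in diploids by a1/alpha2, as are the haploid-specific genes, so these and the mating-type markers were read beside it. Of 9 haploid-specific genes, 5 were lower in gcn5 nascent and 7 in gcn5 total RNA, 6 and 7 in ubp8_gcn5, 7 and 6 in spt20 and 6 in spt7 total RNA, with none higher in these. The shares of all genes that passed were 19.9% and 36.5% in gcn5, 44.5% and 46.9% in ubp8_gcn5, 45.5% and 44.1% in spt20 and 48.5% in spt7. With the constants undone, 7 haploid-specific genes were lower in ubp8_gcn5 nascent RNA, where 30.8% of all genes passed. FAR1, an inhibitor of the G1 cyclin kinase that cells need for mating arrest, changed by -2.48 ± 0.16 and -2.94 ± 0.18 in gcn5. In spt3, where HO was not lower, 2 were lower in nascent and 6 in total RNA (all genes: 13% and 26.7%). The summed signal of 7 markers of MATa cells was 24.7 to 34.8 times the array median in WT nascent and 27.6 to 40.7 times in WT total RNA, and 14.2 to 18 and 17.1 to 18.2 times in gcn5. It was lowest in spt3_gcn5, at 6.6 to 8.86 times. These a-specific genes were lower in gcn5 for 6 of 7 in each fraction, beside the 19.9% and 36.5% of all genes, so they moved with HO in that strain, and they moved in spt20 and spt3 as well. Their part in the HO result was not tested.

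The 4 markers of MATalpha cells summed to 0.869 to 1.7 times the array median in WT nascent and 0.791 to 1.88 times over all groups, and the 7 genes of meiotic cells to 0.713 to 3.07 times over all groups. The alpha-factor gene MF(ALPHA)1 lay between -8.13 and -2.78 on every array. None of the 4 alpha-specific genes was called by limma in gcn5 in either fraction, where 19.9% and 36.5% of all genes passed. At an unadjusted p under 0.05 limma called 0 of them in nascent and 1 in total RNA. With the block 1 was higher and 1 lower in each fraction of gcn5, where 33.4% and 52.4% of all genes passed. Of the 7 meiotic genes, 6 were higher in gcn5 total RNA, where 36.5% of all genes passed, and none in its nascent RNA by limma (4 at an unadjusted p under 0.05), at summed signals of 1.45 to 1.61 times the median in total RNA against 0.823 to 1.38 in WT. Of 8 histone genes, read as markers of S phase although near-identical copies can share a probe set, none was called by limma in gcn5 in either fraction. All genes passed there at 19.9% and 36.5%. At an unadjusted p under 0.05 limma called 0 histone genes in nascent and 1 in total RNA. With the block 4 were lower in gcn5 nascent RNA, where 33.4% of all genes passed, and 1 in its total RNA, where 52.4% passed. In the total RNA of other strains 5 histone genes were lower in spt20 and in spt7 and 7 in spt3_gcn5, while 2 were higher in ubp8, 3 in spt8, 3 in spt3 with 1 lower and 1 in ubp8_gcn5 with 1 lower. The shares of all genes in that order of strains were 44.1%, 48.5%, 56.9%, 25.1%, 15%, 26.7% and 46.9%. In nascent RNA 4 histone genes were lower in spt3_gcn5 and 1 each in spt20, ubp8_gcn5, spt3 and spt8, with none higher. There the shares were 41.8%, 45.5%, 44.5%, 13% and 12.7%. With the constants undone no histone gene was called in ubp8_gcn5 nascent RNA, where 30.8% of all genes passed. Fewer cells in the phase that expresses a gene and less RNA per such cell cannot be told apart in these asynchronous cultures. The part of cell cycle phase in the changes of the 6 genes was not tested.

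Over the 15 strain changes against WT, 7 nascent and 8 total, the genes with the pattern most like that of HO among 4087 genes were INM1 (Pearson r = 0.944), EFM1 (0.888), SIW14 (0.877), RNH70 (0.876) and SER2 (0.871). Their changes in gcn5 were smaller than those of HO, with INM1 at -0.09 in nascent and -0.17 in total RNA and EFM1 at -0.76 and -0.83. The pattern most like that of ASH1 was that of BDF1 (0.957), followed by MRS3 (0.943) and MSB3 (0.914), and BDF1 changed by -1.58 in spt7 and -1.32 in spt3 total RNA. SWI5 was most like POL12 (0.958), HRR25 (0.953) and NUP116 (0.933), and SWI4 most like ULP2 (0.891), OSH3 (0.834) and INO80 (0.814). These are descriptions, since all 15 changes share the WT arrays of their fraction.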

How the data were processed

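The 68 deposited columns hold array signals on a linear intensity scale for 10928 probe sets, made by the authors in version 1.4.1 of Affymetrix Expression Console (per the submitters' processing notes). Neither the labels nor the table name the summarisation algorithm or a scaling. The probe annotation gave 7244 probe sets 1 gene, 1 several and 3683 none, which left 5498 probe sets and 5449 genes of S. cerevisiae, and 12 symbols were updated through the RefSeq gene table. Where a gene had more than 1 probe set (47 genes), the one with the highest signal stood for it. The positions are those of that table.

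Of the 68 arrays 58 were used. WT replicates 1 and 2 were left out as averaged columns. In total RNA they equal means of other WT columns for 5498 of 5498 S. cerevisiae probe sets (tolerance 1e-06). In nascent RNA they do so for 1746 of 1746 S. pombe probe sets but for only 267 of 5498 of S. cerevisiae. The spt7 nascent arrays were left out because their genes follow another order (rank correlation with the same strain's total RNA of 0.0158 to 0.0183), and spt20 total replicates 1 and 3 because their label is in doubt.

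Log2 intensity, minus the median S. cerevisiae gene of each array, was fitted with limma 3.58.1 in R 4.3.3 (lmFit, eBayes), in 1 fit for 28 nascent arrays, 1 for 30 total arrays and 1 for both fractions, with Benjamini-Hochberg adjustment over 5449 genes and no filter. Intervals are at 95%. In a simulation that changed 200 of the 5449 genes, the fit was tested, and over the strains it recovered 28.4 to 46.3% of changes of 0.5, 62.7 to 86.6% of 1 and 93.9 to 100% of 2 (log2) in nascent RNA, and 38.8 to 62.7%, 79.1 to 91.0% and 98.5 to 100% in total RNA. The simulated arrays had independent noise, without the sets seen among the WT arrays or possible technical repeats. Fewer genes changed than were called in the data, so these rates need not hold there. Tables and plots were made in Python 3.11.15 (matplotlib 3.10.9, scipy 1.17.1, pandas 2.3.3, numpy 2.4.6).

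The members and the gene lists were chosen with earlier results of these data known. The genes named are the 6 members, the 4 genes of lowest p in each list and comparison, of which the text gives a choice made with their values known (1 list is not reported here), and the genes most like HO, SWI5, ASH1 and SWI4, searched outside the lowest 25% of mean signal. Alternatives were scaling to the S. pombe genes, quantile normalisation, a filter on the lowest 25% of genes, 10 added to the signal, an intensity trend, each strain fitted alone with WT, consecutive arrays averaged, the replicate number or the S. pombe profile group as a block, the left-out arrays kept in, the constants undone and each array left out in turn. Leaving out each consecutive WT pair, undoing the constants in contrasts between strains and blocking on strain and number were chosen after seeing the data.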

Additional observations from a re-analysis of the deposited data

Results flagged for a closer look

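In 60 groups of 4 or 6 arrays of the 6 genes, 2 held an array far from the others for the group's range, about what chance gives. ASH1 in spt7 total replicate 3 was at -0.091, where the other 3 arrays lay between -0.27 and -0.25, so that the gap made up 0.848 of the range. ASH1 in ubp8_gcn5 total replicate 2 was at 0.77, where the others lay between 0.96 and 0.98, and the gap made up 0.914 of the range. Neither moved a call of ASH1: the spt7 change was -1.33 to -1.22 over all fits without 1 array, and the ubp8_gcn5 change did not pass.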

How the results depend on the processing

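The gcn5 and ubp8_gcn5 changes of HO and the spt20, spt7 and spt3 total changes of ASH1 kept direction and call under every alternative run. Other HO results turned on the WT arrays. Without WT replicates 3 and 4, HO passed in nascent RNA of spt20 (-1.17), ubp8 (-0.92) and spt3_gcn5 (-1.09) and in total RNA of spt20 (-1.09), ubp8 (-0.80), spt8 (-0.72) and spt3_gcn5 (-1.15). Without replicates 5 and 6 spt7 was -0.56 and no longer passed. Without replicates 7 and 8, or with the S. pombe profile block, HO passed in spt3 (1.48 nascent, 0.87 total) and spt8 nascent RNA (0.85), and spt7 (-0.42) did not. With the block, spt3_gcn5 passed at -1.51 and -1.29, its HO against gcn5 was -0.39 and 0.10, and its nascent ASH1 was -0.027 against WT and -0.034 against spt3. Scaling to S. pombe gave HO calls in spt20 (-1.74, -1.02) and spt3_gcn5 (-3.25, -2.21), 22 called nascent member changes in place of 12, and turned SWI4 in spt20 nascent (-0.45), ASH1 and SWI6 in spt3_gcn5 nascent (-1.96, -2.06) and total (-1.30, -1.09), ASH1 and SWI6 in ubp8 total (0.077, 0.013) and ASH1 in spt8 total RNA (0.11). The 22 include ubp8_gcn5 nascent changes from deposited signals, which appear divided by the constants. Quantile normalisation gave SWI4 -0.0042 in spt20 nascent and called HO in spt3 nascent RNA (1.16), as did WT replicates 1 and 2 kept in (1.18, with spt7 at -0.69 and not called). Adding 10 (-0.65) or a trend (-0.67) called HO in spt20 nascent RNA. Averaging consecutive arrays left HO uncalled in spt3_gcn5 against gcn5 (0.98), gcn5 against ubp8 (-1.16) and spt20 against gcn5 (0.90) in nascent and in spt7 total RNA (-0.77), with 12 total calls in place of 20. Fitted alone, spt7 (-0.77) was not called, and 5 nascent and 8 total calls were left.

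The labels do not say whether strain and WT arrays are paired by number, and they were fitted as unpaired. Deviations of same-numbered strain and WT arrays correlated over 0.1 in 4 of 8 nascent and 3 of 9 total cases, which does not settle it. Same-numbered nascent and total arrays did so in 14 of 26, among them all of WT and ubp8. Differently numbered arrays were not compared, and WT arrays of both fractions share the split by S. pombe profile. These correlations therefore do not settle whether nascent and total arrays of a number belong together. With the number as a block HO was -0.62 and -0.60 in gcn5, -0.94 and -0.94 in ubp8_gcn5, all called, and 0.54 in ubp8, 1.94 in spt3 and 1.31 in spt8 nascent RNA, and in total RNA 0.58 in spt20, 0.37 in spt7, 0.89 in ubp8, 1.68 in spt3, 0.99 in spt8 and 0.56 in spt3_gcn5. With strain and number as a block, the nascent minus total value of HO passed in spt3 (0.50), spt8 (0.55) and WT (0.27).

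Without 1 array at a time, HO changed calls in spt20 (-0.91 to -0.49 nascent, -0.83 to -0.40 total), ubp8 (-0.65 to -0.23, -0.54 to -0.10), spt3 nascent (0.79 to 1.21), spt3_gcn5 (-0.83 to -0.41, -0.89 to -0.46), spt7 total (-1.06 to -0.63), spt3_gcn5 against gcn5 (0.93 to 1.06, 1.08 to 1.21) and spt3 total (-1.19 to -1.06), gcn5 against ubp8 nascent (-1.24 to -1.09) and spt20 against gcn5 (0.82 to 0.98, 1.18 to 1.24). Member calls ranged from 10 to 17 in nascent and 15 to 25 in total RNA. Called results of the other members kept their call 309 times, lost it 88 times and turned 11 times over the alternatives, and kept it 262 times and lost it 74 times without 1 array. SWI4, SWI6 and MBP1 have no value under the filter, since their weak signals lie in the lowest 25%. The causes of these differences were not tested.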

Other observations

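The WT arrays held a pattern of their own. Between WT replicates 3 and 4 and replicates 5 and 6, which share an S. pombe profile, HO had the 35th largest gap of 5449 genes in nascent RNA and the 12th largest in total RNA, with more HO in replicates 5 and 6. SWI5 ran the other way, by -0.38 in nascent and -0.58 in total RNA, the latter at least matched by 3.12% of genes. ASH1 differed by 0.05 and -0.11 and SWI6 by 0.11 and -0.09 between the same pairs. Over all genes the root mean square difference between 2 WT arrays had a median of 0.381 (log2) for consecutive replicates in nascent and 0.212 in total RNA. For the other WT arrays set against each other it was 0.951 and 0.808, with lowest values of 0.302 and 0.188. Most of these others set replicates 7 and 8 against replicates 3 to 6, so the medians do not separate consecutive order from the S. pombe profile. In the deletion strains consecutive arrays were not generally closer. Their median was 0.333 against 0.271 for the others in spt20 nascent and 0.177 against 0.143 in spt7 total RNA. It was 0.212 against 0.317 in ubp8_gcn5 nascent RNA, and the other groups differed by less. Between replicates 7 and 8 and replicates 3 and 4, HO differed by 1.92 in nascent and 1.81 in total RNA, which 7.01% and 3.8% of genes matched or passed.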
